A study of Mus musculus with 14 samples.

Results

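Albumin mRNA ran from 0 counts to 189 FPKM (fragments per kilobase of transcript, scaled to the fragments of the library, the deposited expression unit) in hippocampal libraries labelled as the same tissue, and the 10 libraries at the ends of that range are described here. The libraries were selected on the level of Alb itself. The 5 libraries with an Alb FPKM of at least 100 formed the high group, and the 5 libraries with an Alb FPKM under 5 formed the low group. They are 10 of the 14 libraries of the series, and the 4 libraries between these limits were left out of the grouping. The high library closest to its limit had 126 FPKM, and the nearest library left out had 55.8 FPKM. The low library closest to its limit had 2.00 FPKM, and the nearest library left out had 41.7 FPKM. Since the grouping used measured values of these libraries, the differences between the groups are descriptions and carry no P value.

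The study compared mice that lack GPR30 (gene Gper1, a membrane estrogen receptor) with WT mice. All libraries came from poly(A) RNA of the hippocampus of female C57BL/6J mice at 10 weeks of age: 3 WT mice, 3 Δ3102 mice with a CRISPR/Cas9 deletion in every cell, 4 AG-KO mice with floxed GPR30 alleles and GFAP-Cre, which targets astrocytes, and 4 NG-KO mice with the same floxed alleles and NSE-Cre, which targets neurons. All conditional mice carried a Cre transgene, and floxed mice without Cre were not analysed here. The high group held the 3 WT libraries and Δ3102 replicates 1 and 2. The low group held Δ3102 replicate 3, AG-KO replicates 2, 3 and 4, and NG-KO replicate 1. AG-KO replicate 1 and NG-KO replicates 2, 3 and 4 lay between. WT was found only in the high group and AG-KO and NG-KO only in the low group, so genotype and albumin level cannot be told apart in the comparison of the groups as a whole.

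Total counts per library ran from 44527024 to 62669865. Gper1 had 2 to 23 counts in the Δ3102 libraries, 132 to 490 in WT, 77 to 195 in AG-KO and 141 to 222 in NG-KO. Pan-neuronal genes were at like levels in the 2 groups, with a summed FPKM of 1501 to 1637 in the high group and 1439 to 1634 in the low group. In the 4 libraries between, the sum was slightly above both groups, at 1639 to 1708 FPKM. Several libraries also held transcripts of skeletal muscle, heart, testis and kidney, whose levels are given after the liver genes. There were 0 pairs of libraries with identical values.

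Albumin, the apolipoproteins, clotting factors and most complement proteins of plasma are made by hepatocytes and secreted into blood. The genes are switched on together by liver-enriched transcription factors, and most are silent or very low in neurons and glia. Some plasma proteins are exceptions with a known source in brain: transthyretin is made by the choroid plexus, transferrin by oligodendrocytes and apolipoprotein E by astrocytes. In bulk RNA, fewer cells of a type and less RNA per cell cannot be told apart.

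Promoter windows of the 4 liver markers, and of the named gene whose window held all 3 motifs searched, are printed with the letters of the motifs marked. The windows are 300 bases long with most of that length before the annotated start, come from RefSeq (GRCm38.p6), and lie on the plus strand at chr5:90460620-90460919 (Alb), chr9:46228380-46228679 (Apoa1), chr1:171224804-171225103 (Apoa2), chr16:22891765-22892064 (Ahsg) and chr8:105083505-105083804 (Ces3b). Capitals mark the motif GTTAAT, known from liver promoters, and its reverse complement ATTAAC, the CCAAT box CCAAT and its reverse complement ATTGG, and the TATA box TATAAA on the strand of the gene.
Alb: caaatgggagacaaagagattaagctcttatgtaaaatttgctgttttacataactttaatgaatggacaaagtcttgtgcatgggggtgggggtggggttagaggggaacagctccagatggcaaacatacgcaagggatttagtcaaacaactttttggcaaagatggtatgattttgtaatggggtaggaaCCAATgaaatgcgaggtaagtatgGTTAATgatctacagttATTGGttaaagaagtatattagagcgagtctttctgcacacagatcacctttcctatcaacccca
Apoa1: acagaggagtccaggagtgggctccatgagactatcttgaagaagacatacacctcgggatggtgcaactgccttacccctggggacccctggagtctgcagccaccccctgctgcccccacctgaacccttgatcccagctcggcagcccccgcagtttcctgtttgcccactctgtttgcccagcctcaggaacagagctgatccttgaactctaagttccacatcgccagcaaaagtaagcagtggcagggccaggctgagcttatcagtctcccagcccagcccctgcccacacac
Apoa2: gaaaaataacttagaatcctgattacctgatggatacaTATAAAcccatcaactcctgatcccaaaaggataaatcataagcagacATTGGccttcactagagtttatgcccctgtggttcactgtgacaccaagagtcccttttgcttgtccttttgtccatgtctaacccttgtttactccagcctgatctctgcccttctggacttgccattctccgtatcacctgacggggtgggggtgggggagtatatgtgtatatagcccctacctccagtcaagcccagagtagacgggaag
Ahsg: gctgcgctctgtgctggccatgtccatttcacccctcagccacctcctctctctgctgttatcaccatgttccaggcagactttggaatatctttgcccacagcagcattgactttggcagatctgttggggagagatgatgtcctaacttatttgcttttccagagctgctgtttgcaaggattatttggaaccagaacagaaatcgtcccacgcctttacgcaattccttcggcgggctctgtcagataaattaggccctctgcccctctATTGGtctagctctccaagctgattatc
Ces3b: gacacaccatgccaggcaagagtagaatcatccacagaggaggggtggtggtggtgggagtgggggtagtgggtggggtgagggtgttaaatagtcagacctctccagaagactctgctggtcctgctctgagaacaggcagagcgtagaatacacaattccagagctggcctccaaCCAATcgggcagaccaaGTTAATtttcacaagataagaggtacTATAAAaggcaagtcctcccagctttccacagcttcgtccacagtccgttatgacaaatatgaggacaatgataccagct
The Alb window held GTTAAT or its reverse complement at position -32 and CCAAT boxes at positions -56 and -15 from the RefSeq start. That start lay 27 bases from the deposited start of Alb. Ces3b held all 3 motifs between positions -73 and -30. The Apoa1 window held none of these letters. In the Apoa2 window TATAAA lay at position -212 and a CCAAT box at -164. The CCAAT box of the Ahsg window lay at +23, after a RefSeq start 738 bases from the deposited gene start. Of the 4 markers, only Alb held GTTAAT on either strand and only Apoa2 held TATAAA. RefSeq windows were found for 76 of the 97 liver genes that were at least 4-fold higher in the high group. Among their 81 windows, 18.5% held GTTAAT on either strand, 50.6% a CCAAT box and 18.5% a TATA box. Among all 32851 windows the shares were 7.10%, 37.4% and 8.32%. These matches describe the letters in the windows and no factor's binding was measured.

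Alb (ENSMUSG00000029368, chromosome 5, 90460897-90476602, GRCm38) had 167, 126 and 165 FPKM in the 3 WT libraries and 161, 189 and 1.11 FPKM in Δ3102 replicates 1, 2 and 3. It had 44.8 and 1.12 FPKM in AG-KO replicates 1 and 2 and 0 counts in AG-KO replicates 3 and 4, and 2.00, 55.8, 41.7 and 49.6 FPKM in the 4 NG-KO libraries. Read counts ran from 20850 to 26941 in the high group and from 0 to 299 in the low group. Alb ranked between place 160 and place 273 of all genes by FPKM in the high libraries, among genes that neurons and glia express strongly, although it took at most 0.0497% of the counts of a library.

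The other 3 markers took the same 3 levels in the same libraries. Apoa1 (ENSMUSG00000032083, chromosome 9, 46228580-46230466), the main protein of high-density lipoprotein, had 93.0, 81.4 and 74.0 FPKM in WT, 105, 92.4 and 1.20 in Δ3102, 29.5, 0.706, 0.210 and 0.290 in AG-KO, and 0.939, 27.2, 25.3 and 20.3 in NG-KO. Apoa2 (ENSMUSG00000005681, chromosome 1, 171225054-171226379), the second apolipoprotein of the same particle, had 117, 110 and 105 FPKM in WT, 134, 107 and 2.55 in Δ3102, 38.5, 3.35, 1.03 and 0.828 in AG-KO, and 3.42, 44.1, 34.7 and 33.8 in NG-KO. Ahsg (ENSMUSG00000022868, chromosome 16, 22891277-22899449), which encodes fetuin-A, an inhibitor of mineral deposition, had 25.4, 17.1 and 27.2 FPKM in WT, 18.1, 25.7 and 0 counts in Δ3102, 4.93, 0.118, 0 counts and 0.0271 in AG-KO, and 0.130, 9.12, 5.80 and 7.35 in NG-KO. No value of any of these genes in a high library came near a value in a low library, and the 4 libraries between were apart from both groups for every marker.

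**Figure D1:**
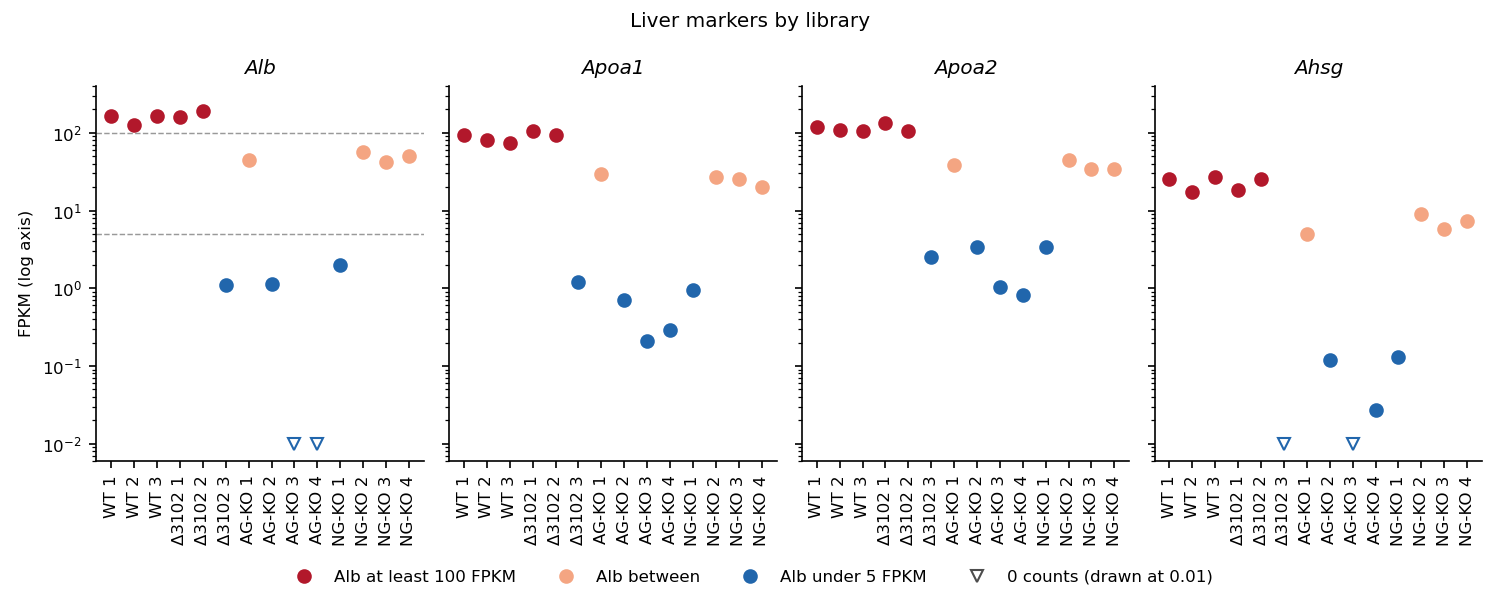
FPKM (log axis) of the 4 liver markers by library, with the 14 libraries coloured by Alb group and dashed lines at the limits of 100 and 5 FPKM for Alb and open triangles for libraries with 0 counts. All 4 genes show the same 3 bands of libraries, and Alb spans 126 to 189 FPKM in the high group and 0 counts to 2.00 FPKM in the low group.

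Of 18059 genes that passed the expression filter (0.5 FPKM or more in 3 or more libraries), 361 (2.00%) were higher in every high library than in every low library on the scale of normalised counts scaled to library size (CPM), and 162 (0.897%) were lower in every high library. Of these, 152 genes (0.842%) were at least 4-fold higher and 5 (0.0277%) at least 4-fold lower by the edgeR estimate. The liver lists, 10 lists with 223 genes of plasma proteins and hepatocyte enzymes, held 152 genes that passed the filter. Of these, 106 were higher without overlap (69.7%), 0 were lower, and 97 were at least 4-fold higher, so the liver lists accounted for 97 of the 152 genes with a 4-fold separation. The median log2 difference (high minus low) was 5.20 over the liver list genes that passed and 0.00 over all genes. A liver gene could pass the filter through the high libraries alone, so these counts describe the genes that passed and are no independent support.

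Of the 71 liver list genes that did not pass, 66 had at least 1 count in the high group and 40 in the low group, with 16482 counts in all in the high group and 3303 in the low group. In 31 of the 152 genes that passed, the low group held at most 3 counts over its 5 libraries. For those a fold is given against a floor of 3 counts over the group and is a lower bound where the low group held 0 counts.

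**Figure D2:**
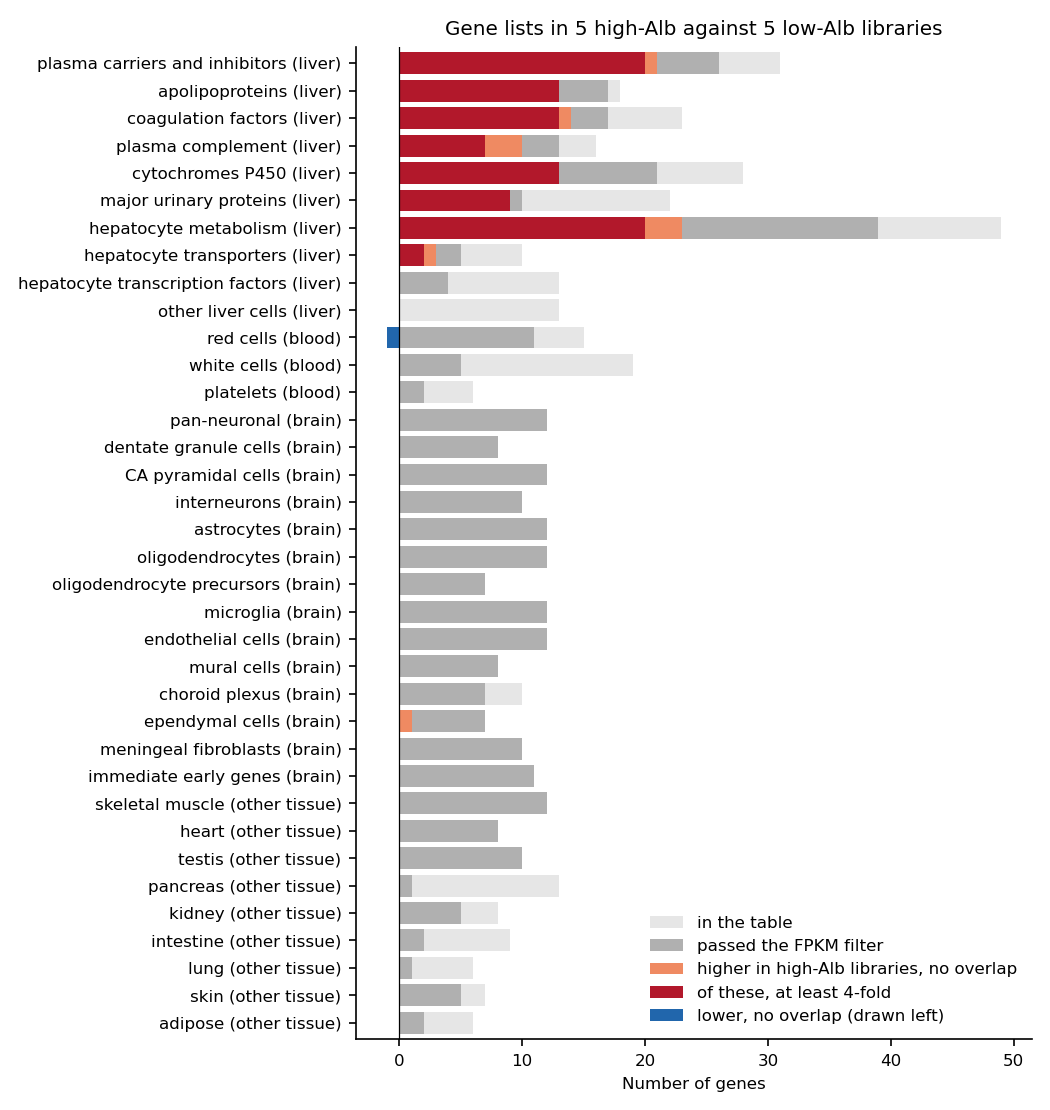
Number of genes of each list in the table, past the FPKM filter, and separated without overlap between the 5 high-Alb and 5 low-Alb libraries, with genes at least 4-fold higher in dark red and the lower gene drawn to the left. Separation is found in 8 of the 10 liver lists and in 1 gene each of the ependymal and red cell lists.

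Most secreted carriers and protease inhibitors separated. Of 26 genes of this list that passed the filter, 21 were higher without overlap and 20 at least 4-fold. The Serpina1 family, which encodes alpha-1-antitrypsin, had a summed FPKM of 98.1 to 180 in the high group, 30.0 to 51.3 between and 0.112 to 2.52 in the low group. Its 6 annotated genes are near-identical copies on chromosome 12, so reads may be divided wrongly among them and the sum is the safer value. Serpina3k, a kallikrein-binding inhibitor, had 47.4, 37.6 and 33.9 FPKM in WT, 18, 44.1 and 0.0325 in Δ3102, 4.28, 0.506, 0 counts and 0 counts in AG-KO, and 0.590, 17.7, 12.5 and 11.4 in NG-KO. Within the high group Δ3102 replicate 1 had the lowest value.

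Several other carriers of the list separated. Gc, the vitamin D carrier, had 14.5 ± 5.54 FPKM (mean ± SD, n = 5) in the high group and 0.101 ± 0.127 (n = 5) in the low group. Hpx, the haem carrier hemopexin, had 17.8 ± 6.11 against 0.238 ± 0.230 FPKM, and Hp, the hemoglobin carrier haptoglobin, 17.8 ± 5.61 against 0.393 ± 0.156 FPKM. Ambp, the precursor of alpha-1-microglobulin and bikunin, had 12.3 ± 2.36 FPKM against 6 counts over the whole low group. The acute-phase carrier Orm1 had 1961 counts in the high group and 0 in the low group, at least 567-fold higher. Hp, Hpx and Orm1 were highest in Δ3102 replicate 1, at 27.6, 27.8 and 17.2 FPKM, where Gc and Serpina3k were lowest of the 5 high libraries.

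Carriers with a known source in brain behaved differently. Trf, the iron carrier transferrin, had 88.6 ± 11.3 FPKM in the high group and 71.6 ± 17.4 in the low group, with overlap. Ttr had 72.0 to 114 FPKM in 4 high libraries and 1405 in Δ3102 replicate 1, and 1.81 to 234 FPKM in the low group. The choroid plexus genes Enpp2, Kl, Folr1 and Clic6 were also highest in Δ3102 replicate 1, and their part in the Ttr level was not tested. Rbp4, the retinol carrier, was 22.3 ± 2.42 FPKM in the high group and 5.90 ± 2.01 in the low group, a log2 difference of 1.89 ± 0.22 (SE), separated although every low library held it.

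Lipoprotein genes gave the same division. Of 17 apolipoprotein and lipid-transfer genes that passed, 13 separated, all by at least 4-fold. Apoc1 had 45.1 ± 13.4 FPKM in the high group, 15.2 between and 0.839 ± 0.622 in the low group. Apoc3, an inhibitor of lipoprotein lipase, had 16.3 ± 9.14 against 0.296 ± 0.207 FPKM. Apob, the structural protein of very-low-density lipoprotein, was low per length throughout, at 0.553 ± 0.0897 against 0.0153 ± 0.00942 FPKM, from 2505 against 60 counts. Apoh had 6.71 ± 2.71 against 0.363 ± 0.149 FPKM. The genes of this list that did not separate were Apoe, at 433 ± 73.1 against 377 ± 47.7 FPKM, Lcat, Mttp and Apoc2, the last with counts in only some high libraries (2.07, 0 and 1.21 FPKM in WT).

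Clotting factors were low in level and wide in separation. Of 17 that passed, 14 separated and 13 by at least 4-fold. The 3 fibrinogen chains (Fga, Fgb and Fgg, adjacent on chromosome 3) had a summed FPKM of 8.44 to 22.1 in the high group and of at most 0.231 in the low group. Fgb had 4.42, 2.66 and 4.56 FPKM in WT, 3.38, 6.26 and 0 counts in Δ3102, 0.636, 0.0546, 0 counts and 0 counts in AG-KO, and 0.0310, 1.56, 0.654 and 1.65 in NG-KO. Plg, the precursor of plasmin, had 3747 counts in the high group and 0 in the low group, at least 1088-fold higher, and Kng1, the precursor of bradykinin, 4377 and 0, at least 1268-fold higher. F2, prothrombin, had 1.82 ± 0.610 FPKM in the high group and 8 counts over the low group. Pros1, the anticoagulant cofactor protein S, was the exception with 2.68 ± 0.136 FPKM in the high group and 2.93 ± 0.511 in the low group.

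Complement genes separated by smaller steps. Of 13 that passed, 10 were higher without overlap and 7 by at least 4-fold. C3, the central component, had 6.54, 4.66 and 9.39 FPKM in WT, 4.34, 6.12 and 0.425 in Δ3102, 2.03, 0.588, 0.506 and 0.490 in AG-KO, and 0.127, 3.06, 1.60 and 2.65 in NG-KO. C6 and C8b, parts of the membrane attack complex, Cfi, the C3b inactivator, and the lectins Mbl1 and Mbl2 each had 0 counts in the low group. C8g, Cfb and C1s1 separated with low-group means of 1.16, 1.07 and 0.379 FPKM, so that their log2 differences were only 1.27, 1.66 and 1.24. Masp1 overlapped, at 1.55 ± 0.211 against 1.62 ± 0.215 FPKM.

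Major urinary proteins are pheromone carriers of the lipocalin family that mouse liver secretes in large amounts. The 22 Mup genes of chromosome 4 had a summed FPKM of 105 to 217 in the high group, 29.2 to 37.8 between and at most 1.17 in the low group. Mup3 had 40.8, 34.1 and 34.2 FPKM in WT, 37.5, 53.1 and 0.0645 in Δ3102, 11, 0.247, 0 counts and 0 counts in AG-KO, and 0.217, 15.5, 10.2 and 10.4 in NG-KO. Mup7 had 25.3 to 38.5 FPKM in the other high libraries and 81.6 in Δ3102 replicate 2. Mup12 had 5129 counts in the high group and 0 in the low group, at least 1491-fold higher, the largest estimate of any gene named by the rule used. Of the 22 genes, 10 passed the filter, 9 separated and 9 did so by at least 4-fold, and Mup22 did not because 2 high libraries held 0 counts. The copies are near-identical, so the division of reads among them is uncertain and the family sum is the measurement to read.

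Hepatocyte enzymes were divided. Of 21 cytochromes P450 that passed, 13 separated, all by at least 4-fold. Cyp2e1, which oxidises ethanol and acetone, had 17.4, 23.1 and 32.9 FPKM in WT, 19.0, 31.7 and 7.84 in Δ3102, 6.27, 3.6, 0.640 and 0.812 in AG-KO, and 0.244, 6.55, 6.35 and 9.73 in NG-KO. Δ3102 replicate 3 was the highest of the low libraries for this gene and stood above AG-KO replicate 1. Cyp2d10 had 1942 counts in the high group and 3 in the low group. Cyp7b1, Cyp27a1, Cyp4f14 and Cyp4v3, which have known expression outside liver, overlapped with low-group means of 9.07, 1.9, 2.57 and 2.48 FPKM. The bile acid enzyme Cyp7a1 had 0 counts in all 14 libraries.

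Of 39 metabolic enzymes that passed, 23 separated and 20 by at least 4-fold. Fabp1, the liver fatty acid binding protein, had 54.2 ± 11.8 FPKM in the high group, 15.1 between and 0.556 ± 1.08 in the low group, where AG-KO replicate 2 held 2.47. Hpd of tyrosine breakdown had 6.23 ± 1.16 against 0.0739 ± 0.0932 FPKM, and Arg1 of the urea cycle 2.23 ± 0.554 against 0.0319 ± 0.0433. Cps1, the entry enzyme of that cycle, had 1.25 ± 0.557 against 0.0649 ± 0.0897 FPKM. The carboxylesterase Ces1c had 3942 counts against 4. Of the urea cycle genes, Ass1 and Asl overlapped, with 17.7 ± 4.49 against 11.3 ± 2.49 FPKM for Ass1.

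Of the 46 liver list genes that passed and overlapped, 30 had a mean of at least 1 FPKM in the low group. In 9 of the 46 the overlap came from Δ3102 replicate 3 alone, since they separated when this library was left out, among them Pck1, Fbp1, G6pc, Gsta3, Car3, Cyp2a5 and Cyp4a12a. Pck1, Fbp1 and G6pc are enzymes of gluconeogenesis, made by liver and by the kidney cortex. Pck1 had 2.51, 4.04 and 7.09 FPKM in WT, 4.18, 4.66 and 2.55 in Δ3102, 1.59, 0.930, 0.744 and 0.458 in AG-KO, and 0.0688, 1.05, 1.05 and 1.26 in NG-KO. Fbp1 had 4.32, 8.06 and 8.90 FPKM in WT, 4.93, 5.14 and 6.37 in Δ3102, 1.62, 2.40, 0.765 and 0.366 in AG-KO, and 1.15, 1.68, 2.04 and 2.42 in NG-KO. In Δ3102 replicate 3, which held 1.11 FPKM of Alb, both genes were thus within the range of the high group.

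The kidney genes took another order over the libraries than Alb. Kap, the androgen-regulated protein of the kidney proximal tubule, had 2.38, 364 and 491 FPKM in WT, 359, 385 and 349 in Δ3102, 127, 77.7, 26.8 and 18.1 in AG-KO, and 1.12, 0.739, 94.6 and 97.7 in NG-KO. WT replicate 1 was therefore high in Alb and nearly without Kap, and Δ3102 replicate 3 was high in Kap and nearly without Alb. WT replicate 1 also had the lowest Pck1 and Fbp1 of the high group. Slc34a1, the proximal tubule phosphate transporter, had 0.0796 FPKM in WT replicate 1 and 3.36 in Δ3102 replicate 3. Of the 8 kidney genes, 5 passed the filter and 0 separated, near the 2.00% higher and 0.897% lower of all genes. The list had a summed FPKM of 4.40 to 505 in the high group and 1.95 to 363 in the low group. The part of kidney transcripts in the levels of the 9 genes was not tested.

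**Figure D3:**
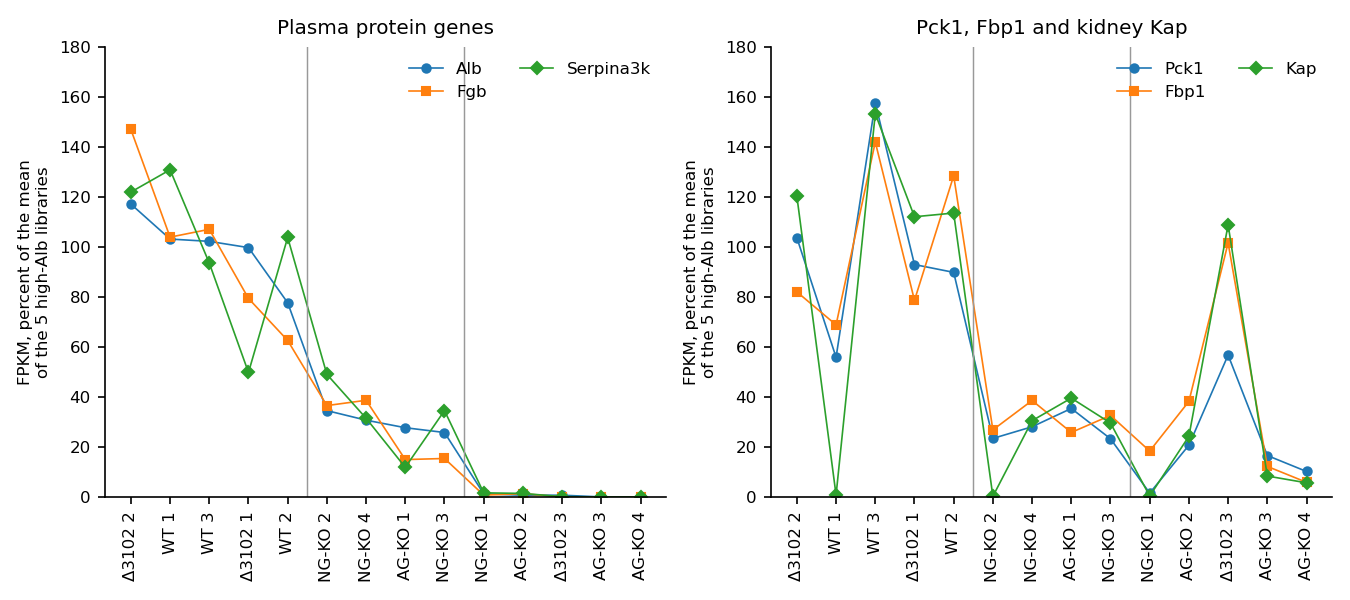
FPKM of plasma protein genes (left) and of Pck1, Fbp1 and the kidney gene Kap (right), as percent of each gene's mean in the 5 high-Alb libraries, with libraries in falling order of Alb and grey lines between the high, between and low libraries. Alb, Fgb and Serpina3k fall to near 0 in all 5 low libraries, while the genes on the right are high again in Δ3102 replicate 3, where Fbp1 had 6.37 FPKM and Kap 349 FPKM.

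Transporters and regulators of hepatocytes were counted as separate lists. Of 5 transporters that passed, 3 separated, among them Slc10a1, the bile acid importer, with 1.37 ± 0.507 against 0.0276 ± 0.0480 FPKM, and Slc27a5, a bile acid ligase, with 1.77 ± 0.298 against 0.0982 ± 0.0720 FPKM. The amino acid transporter Slc38a3, which brain also expresses, had 8.94 ± 0.811 against 11.4 ± 4.04 FPKM and overlapped, as did Slc27a2. Of 13 liver transcription factors, 4 passed and 0 separated, where 2.00% of all genes were higher. With 4 genes this count cannot show whether they followed Alb, and their median log2 difference was 1.49. Cebpa, the highest of the 4 in the high group, had 5.11 ± 0.937 against 4.06 ± 1.52 FPKM, a log2 difference of 0.31. Hnf4a, Nr1h4 and Creb3l3 had log2 differences of 1.62, 1.59 and 1.39, and Hnf4a had 0.347 FPKM in WT replicate 1 and 1.12 in Δ3102 replicate 3. Markers of Kupffer cells, sinusoidal endothelium, stellate cells and bile duct were too low to test: 0 of 13 passed the filter, and their summed FPKM was 0.701 to 1.70 in the high group and 0.476 to 1.5 in the low group. Clec4f, which marks Kupffer cells, had a mean of 0.0914 FPKM in the high group and 0 counts between and in the low group.

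Outside the liver lists, 55 genes were at least 4-fold higher, 7 of them predicted gene models. Hamp, which encodes the iron hormone hepcidin, had 14.8, 8.68 and 9.20 FPKM in WT, 9.17 and 10.3 in Δ3102 replicates 1 and 2, and 0 counts in the low group, at least 400-fold higher. It had 2.27 FPKM in AG-KO replicate 1 and 4.59, 1.48 and 2.34 in NG-KO replicates 2, 3 and 4. Mug1, a murinoglobulin protease inhibitor, was at least 1017-fold higher, the paraoxonase Pon1 at least 298-fold, the bilirubin-conjugating Ugt1a1 at least 288-fold and the carboxylesterase Ces3b at least 271-fold. The retinol dehydrogenase Rdh7 had 4.62 ± 0.973 against 0.0134 ± 0.0297 FPKM and the class I gene H2-Q10 2.49 ± 0.664 against 0.0191 ± 0.0383 FPKM. The asialoglycoprotein receptor gene Asgr1, the acute-phase gene Lrg1 and the keratin Krt18 kept low-group means of 0.579, 0.662 and 0.258 FPKM and had log2 differences of 2.31, 2.06 and 2.92.

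By the naming rule, the 20 genes with the largest estimates higher in the high group included 14 of the liver lists, lay on 12 chromosomes, and 19 of them had at most 3 counts in the whole low group. Their estimated log2 differences, from 9.67 for Mup7 to 12.91 for Mup12, depend on a prior count where the low group is at 0 and are no bounds.

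The 4 libraries that the grouping left out were left out for their Alb level, so their place between the groups is a description too. AG-KO replicate 1 and NG-KO replicates 2, 3 and 4 lay above all low and below all high libraries for 85 of 18059 genes (0.471%), and 67 of these 85 were liver list genes. In the 152 genes with a 4-fold separation, the mean CPM of the libraries between was 29.2% of the high mean (median, quartiles 25.6 to 32.6%) and that of the low group 1.27%. In the 97 liver list genes among them, the median level was 24.9% of the high mean in AG-KO replicate 1 and 36.2, 23.7 and 29.9% in NG-KO replicates 2, 3 and 4. The high libraries ran from 75.3% in WT replicate 2 to 123% in Δ3102 replicate 2. These 97 genes took 0.154 to 0.235% of all counts in the high group, 0.0488 to 0.0690% between and 0.00158 to 0.00638% in the low group. In the low group, 47 to 67 of the 97 genes had 0 counts, the most in AG-KO replicate 3 and the fewest in AG-KO replicate 2.

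**Figure D4:**
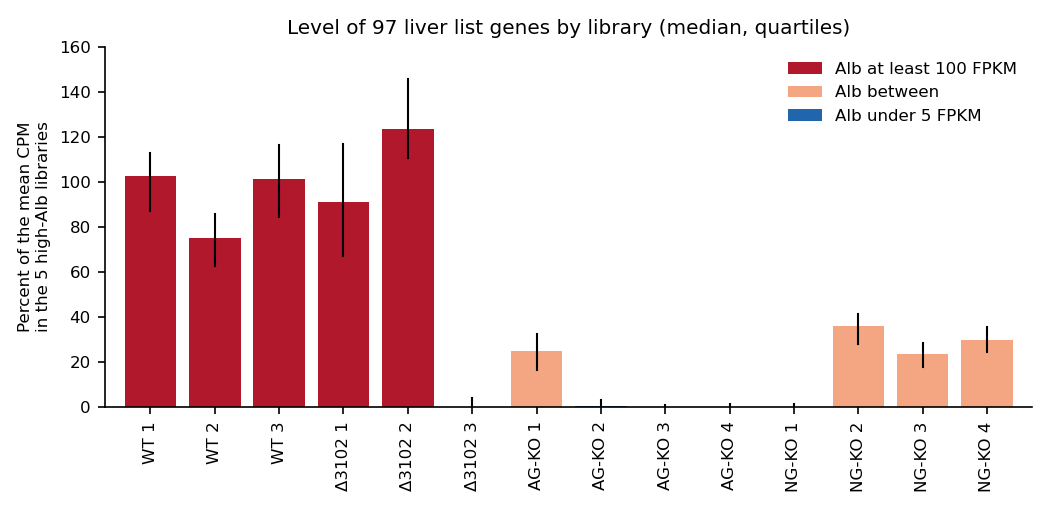
Level of the 97 liver list genes at least 4-fold higher in the high group, in each library, as percent of each gene's mean CPM in the 5 high-Alb libraries. Bars give the median gene and black lines the quartiles, and the libraries between sit at 23.7 to 36.2% while the low libraries sit near 0.

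The proportion of each gene to Alb varied more for some genes than for others. The ratio of Apoa1 to Alb FPKM was 0.447 to 0.649 in the high group and 0.408 to 0.659 between. Ahsg was 0.112 to 0.164 of Alb in the high group and 0.110 to 0.163 between, Mup3 0.207 to 0.280 and 0.209 to 0.278, and Hamp 0.0542 to 0.0886 and 0.0356 to 0.0822. The sum of the Serpina1 genes was 0.781 to 0.964 of Alb in the high group and 0.721 to 0.933 between. The Mup sum ran from 0.704 to 1.15 of Alb in the high group and from 0.589 to 0.828 between. Serpina3k varied more, from 0.112 to 0.299 of Alb in the high group and from 0.0957 to 0.318 between. The fibrinogen sum ran from 0.0523 to 0.117 of Alb and from 0.0431 to 0.102 between, and the sum of the Cyp2c genes from 0.0256 to 0.0686 and from 0.0155 to 0.0419 between. The ranges of the libraries between overlapped those of the high group for each of these ratios.

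Within the mutant genotypes, the high or between libraries can be set against the low ones of the same genotype: Δ3102 replicates 1 and 2 above replicate 3, AG-KO replicate 1 above replicates 2 to 4, and NG-KO replicates 2 to 4 above replicate 1. Over all genes, 568 (3.15%) were higher in this sense in all 3 genotypes and 448 (2.48%) lower. Of the 152 liver list genes that passed, 95 were higher and 0 lower, a share of 62.5%. The share of liver list genes with this order was above that of all genes. Alb set these sides too and is itself among the 95. A liver gene could again pass the filter through the libraries high in Alb. These shares are therefore a description and no independent support.

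By Pearson correlation of log2(FPKM + 0.1) over the 14 libraries, the 15 of 16338 genes most like Alb were all liver list genes, with r from 0.959 to 0.994. The libraries fall into 3 levels and share their Alb values with the grouping, so r is given as a description. Serpina1c was nearest at 0.994, followed by Serpina1a at 0.991, Apoa2 and Serpina1e at 0.990 and Serpina1b at 0.988. Apoc1, Apoa1, Mup3, Gc and Serpina3k followed at 0.986 to 0.973, and then Ahsg, Ces3a, Mup20, Mup7 and Fabp1.

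Blood cell genes were measured in both groups. Of 40 genes of red cells, white cells and platelets in the table, 18 passed, 0 were higher without overlap and 1 was lower, Hbq1a, a minor globin with 0.280 ± 0.215 FPKM in the high group and 1.14 ± 0.360 in the low group. Over all genes the shares were 2.00% and 0.897%, so these counts are near the background. In the order within all 3 mutant genotypes, 3 of the 18 genes were higher (16.7%), all of the red cell list, and 0 lower. Over all genes the shares in that order were 3.15% and 2.48%. The median log2 difference of the 18 genes was 0.63, against 5.20 for the liver list genes. The adult globins were higher on average: Hbb-bs had 254 ± 78.9 FPKM in the high group and 117 ± 53.9 in the low group, with a log2 difference of 1.10 ± 0.31 (SE), and Hba-a1 193 ± 51.0 against 87.0 ± 37.9 FPKM. The groups overlapped, since Hbb-bs had 142 FPKM in WT replicate 1 and 200 in Δ3102 replicate 3. Summed over the red cell list the high group ran from 740 to 1347 FPKM and the low group from 352 to 811 FPKM. Alas2, the haem synthesis enzyme of red cells, had 1.97 ± 0.445 against 0.794 ± 0.546 FPKM.

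Neutrophil genes took an order of their own. S100a9 had 3.95 and 16.5 FPKM in WT replicates 1 and 2 and 0 counts in WT replicate 3, 0.419, 16.1 and 10.9 FPKM in Δ3102, at most 1.31 FPKM in AG-KO and 0 counts to 4.03 FPKM in NG-KO. S100a8 and Ngp were high in the same 3 libraries, WT replicate 2 and Δ3102 replicates 2 and 3, of which Δ3102 replicate 3 belongs to the low group. Of 5 white cell genes that passed, 0 separated, near the 2.00% higher and 0.897% lower of all genes.

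Brain genes were at like levels in both groups. Of 143 genes in 14 lists, 140 passed, 1 was higher without overlap and 0 lower, against 2.00% and 0.897% of all genes. Their median log2 difference was -0.01, with quartiles of -0.18 and 0.13, and 133 of the 140 lay within 1 log2 unit of 0. The synaptic vesicle gene Syp had 332 ± 20.3 FPKM in the high group and 321 ± 17.1 in the low group, and Snap25 256 ± 11.7 against 246 ± 15.9 FPKM. The astrocyte genes Clu and Aldoc had 277 ± 21.0 against 262 ± 13.7 and 243 ± 24.1 against 241 ± 20.7 FPKM. The granule cell gene Calb1 had 24.7 ± 2.20 against 24.2 ± 7.29 FPKM. The gene that separated was Rarres2 (chemerin) of the ependymal list, with 8.58 ± 2.30 against 5.57 ± 0.982 FPKM, and chemerin is also a product of liver.

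Some brain lists varied between single libraries without following Alb. The oligodendrocyte list ran from 473 to 1104 FPKM in the high group, the highest in WT replicate 2, and from 424 to 747 in the low group. The immediate early gene list ran from 88.4 to 100 FPKM in the high group and from 75.7 to 217 in the low group, the highest in AG-KO replicate 2. Its median log2 difference was -0.39 and 0 of its 11 genes separated, where 2.00% of all genes were higher and 0.897% lower. Choroid plexus genes summed to 130 FPKM in Δ3102 replicate 1 and to 18.4 to 46.2 FPKM in all others. Aqp1 of that list had the largest log2 difference of the brain genes, 1.56 ± 0.42 (SE), with 2.80 to 7.99 FPKM in the high group and 3.22 in Δ3102 replicate 3 against 0.811 to 1.25 in the other low libraries. Aqp1 is also made in kidney tubules. Mpped1 of the CA pyramidal list had the lowest, -1.21, with overlap.

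**Figure D5:**
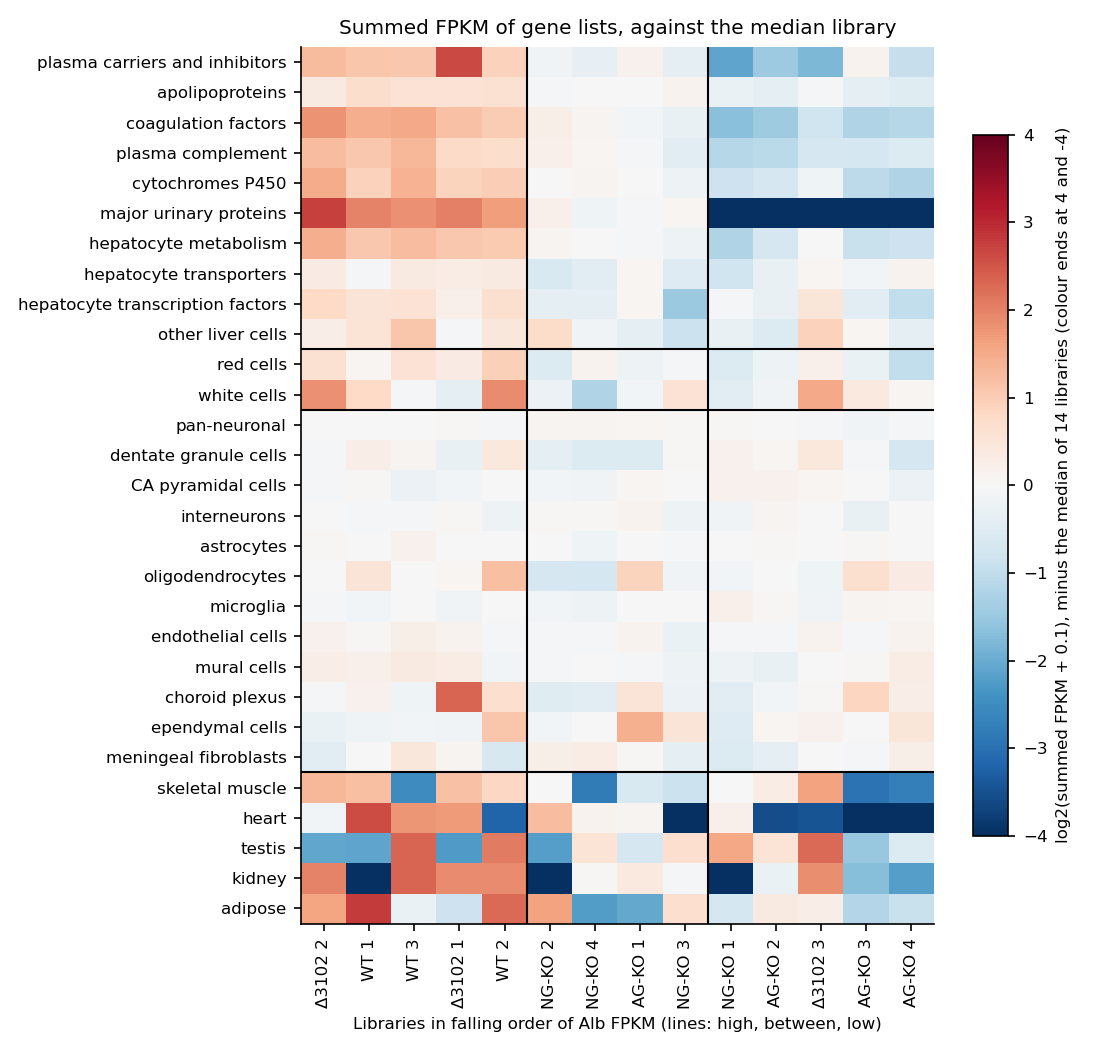
Summed FPKM of most gene lists in each library as log2(sum + 0.1) minus the median of the 14 libraries, with libraries in falling order of Alb and lines between groups and between liver, blood, brain and other tissue lists. The immediate early gene list is not drawn. The plasma protein, P450 and Mup lists at the top go from red in the high libraries to blue in most low libraries, most brain lists stay near white with choroid plexus in Δ3102 replicate 1 as an exception, and the muscle, heart, testis and kidney lists each take another order.

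Transcripts of other tissues were present in both groups. Of 79 genes in 9 lists, 46 passed and 0 separated in either direction, near the background of 2.00% higher and 0.897% lower. Their median log2 difference was 0.64, with 3.36 for the 8 heart genes and 2.43 for the 2 adipose genes that passed. The heart list had 304 FPKM in WT replicate 1, 169 in WT replicate 3, 163 in Δ3102 replicate 1 and 46.2 in Δ3102 replicate 2, but 5.28 in WT replicate 2, all of the high group. In the low group it had 56.6 FPKM in NG-KO replicate 1 and at most 4.46 in the others. The skeletal muscle list ran from 53.3 to 767 FPKM in the high group and from 39.3 to 929 in the low group, with the highest value in Δ3102 replicate 3. The testis list had 198 and 235 FPKM in WT replicates 2 and 3 and 9.74 to 11.1 in the other high libraries, with 16.4 to 230 FPKM in the low group. Genes of pancreas and lung were near 0 throughout, with summed FPKM of at most 1.66 and 1.43. The part of these tissues in the liver gene levels was not tested.

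Genes outside the liver lists that separated mostly differed by less than 4-fold. Of the 361 genes higher without overlap, 255 were outside these lists, and 55 of the 255 were at least 4-fold higher. Over all 361 genes, 169 had a mean of at least 1 FPKM in the low group, 7 of them liver list genes. Itpka, a dendritic spine kinase, had 101 ± 5.53 against 76.9 ± 8.41 FPKM (log2 difference 0.37 ± 0.08, SE). Of 87 cytosolic ribosomal protein genes, 10 were higher without overlap (11.5%), with a median log2 difference of 0.23. Of 81 nuclear genes of the respiratory chain, 8 were (9.88%), with a median of 0.23. Over all genes the share was 2.00% and the median 0.00. In the order within all 3 mutant genotypes, 6 of the 87 and 16 of the 81 genes were higher, against 3.15% of all genes. Rpl38 had 261 ± 9.13 FPKM in the high group but 98.5 and 121 in AG-KO replicates 3 and 4 and 235 to 246 in the other low libraries. These 2 families were chosen after their members were seen among the separated genes. Mitochondrially encoded transcripts summed to 35534 to 42112 FPKM in the high group and 34237 to 59706 in the low group, highest in the same AG-KO replicates 3 and 4.

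Genes lower in the high group changed by less. Of the 162 genes, 5 were at least 4-fold lower, of which 3 are predicted models and the others Hbq1a and the small nucleolar RNA Snord14c. After Hbq1a, the named genes with the largest differences were Dlk1, an imprinted Notch ligand, with a log2 difference of -1.52 ± 0.24 (SE) and 0.492 ± 0.110 against 1.40 ± 0.455 FPKM, and Slc43a2, an amino acid transporter. Slc43a2 had 4.29, 4.82 and 0.848 FPKM in WT, 1.22, 0.640 and 6.25 in Δ3102, 1.49, 5.55, 6.33 and 6.54 in AG-KO, and 5.77, 1.04, 1.10 and 0.970 in NG-KO. It was the gene among the 10 named lower genes that kept its order within all 3 mutant genotypes, with values near 1 or near 6 FPKM and only WT replicates 1 and 2 in between. Smpdl3b, Tshz1, Stc1, Zfp423, Cramp1l, Tas1r1 and Etv3 had log2 differences from -1.21 to -0.76.

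The tests that the study's design allows compare each mutant genotype with WT over all 14 libraries. In Δ3102, AG-KO and NG-KO mice 2 (0.0111%), 4 (0.0221%) and 13 (0.0720%) of 18059 genes passed a Benjamini-Hochberg adjusted P of 0.05 by edgeR's quasi-likelihood test. None of the 152 liver list genes did in any genotype (0, 0 and 0 genes). At an unadjusted P under 0.05 the liver list held 1, 91 and 30 genes, of which 1, 90 and 30 were lower than in WT, against 804 (4.45%), 2599 (14.4%) and 1655 (9.16%) of all genes. DESeq2 called 0, 24 and 6 liver list genes at the same adjusted threshold, against 29, 408 and 165 of the 18059 genes. The median log2 difference from WT over the liver list was -0.24, -3.21 and -1.94.

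For Alb the log2 difference from WT was -0.37 ± 1.89 (SE, adjusted p = 1.0) in Δ3102, -3.75 ± 1.88 (adjusted p = 0.382) in AG-KO and -2.03 ± 1.78 (adjusted p = 0.789) in NG-KO mice by edgeR. The large errors go with the spread of Alb within each mutant genotype, from 1.11 to 189 FPKM in Δ3102 mice alone. The smallest adjusted P of the liver list was 0.10 in AG-KO mice, for Serpinf2, the plasmin inhibitor, and Gsta3, and 0.168 in NG-KO mice by the same test. Apoe, which astrocytes express, had a log2 difference of -0.42 ± 0.09 (SE, adjusted p = 0.120 by edgeR) in AG-KO mice. The comparisons share the 3 WT libraries, which were all high in Alb.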

How the data were processed

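Poly(A) RNA of the hippocampus was sequenced from 14 mice in 4 genotypes, 1 library per mouse, and p-values measure the spread between these mice. Per the paper's methods and the submitters' processing notes, the authors made strand-marked libraries with molecular identifiers, trimmed reads with cutadapt 1.9, aligned them to GRCm38 with HISAT2 2.0.4 and estimated FPKM with StringTie 1.3.4d. The program behind the deposited raw counts per gene is not given in the sources used here. The deposited table gives counts and FPKM of 55450 genes, with 0.0001 FPKM written for no signal, and holds 0 columns of other samples. Genes at 0.5 FPKM or more in 3 or more of 14 libraries were kept (18059 genes, 99.6 to 99.7% of counts). Total counts of 44527024 to 62669865 per library limit a gene at 0 counts to at most 3 counts over a group, which covers counting error only.

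Counts were normalised by TMM and fitted with edgeR 4.0.16 in R 4.3.3. Log2 differences between the high and low groups, their SE, and the absence of overlap in CPM are given without a p-value, since Alb chose the groups. Tests were run only for each genotype against WT (quasi-likelihood test over 14 libraries, Benjamini-Hochberg adjustment over all 18059 genes, threshold 0.05). Tests were checked on simulated counts whose spread followed the trend over all genes. This check cannot show how the tests behave for genes with a wider spread, such as Alb. The grouping rule, gene lists and naming rule were chosen with earlier results of these data known. Genes named are the 4 markers, the 20 highest and 10 lowest log2 differences among separated genes with a mean of at least 1 FPKM and no predicted model, the 3 most abundant of each list, and liver list genes with a 4-fold difference. The other genes named were chosen after their values were seen. Alternatives were median-ratio size factors, other filters, deposited FPKM in place of counts, other library sets, a replicate block, DESeq2 1.42.0, each library left out, and, added after seeing the data, library sizes without mitochondrial genes. Replicate numbers did not pair mice of different genotypes: over 19 pairs of equal number the correlation of deviations ran from -0.28 to 0.31 and passed 0.1 in 6. Results of some genes are not reported here. Promoter windows came from RefSeq (GRCm38.p6). Tables were made in Python 3.11.15 with pandas 2.3.3 and NumPy 2.4.6, and plots with matplotlib 3.10.9.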

Additional observations from a re-analysis of the deposited data

Results flagged for a closer look

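A gap test (Dixon's, at its 95% critical value) on 164 groups of 4 or 5 libraries marked 19 values that stand apart from the other libraries of their group. Chance alone marks about 5% of groups, and the values are not independent since many lists share libraries. Alb set the grouping, so the gap for Alb in AG-KO replicate 1 restates that choice, and the gaps of genes that follow Alb are no separate evidence.

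AG-KO replicate 1, one of the libraries between the limits, stood above the other AG-KO libraries for Alb (44.8 FPKM against at most 1.12), Apoa1 (29.5 against at most 0.706), Apoa2 (38.5 against at most 3.35) and Ahsg (4.93 against at most 0.118). Its summed FPKM also stood apart for coagulation factors (16.3), major urinary proteins (31.2) and heart genes (53.4 against at most 4.18). AG-KO replicate 4 had the lowest red cell sum of its genotype, 352 FPKM against at least 583.

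Among the high libraries, Δ3102 replicate 1 stood above the others for the carrier and inhibitor list (1970 FPKM, a sum that includes the 1405 FPKM of Ttr) and for choroid plexus genes (130). Δ3102 replicate 2 stood above the others for major urinary proteins (217 FPKM). WT replicate 1 stood below the others for hepatocyte transporters (17.2 FPKM) and for kidney genes (4.40 against at least 369.7). WT replicate 2 stood above the others for oligodendrocyte precursor genes (98.8 FPKM) and ependymal genes (45.0).

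Among the low libraries, NG-KO replicate 1 stood above the others for major urinary proteins (1.17 FPKM against at most 0.247) and heart genes (56.6 against at most 4.46). Δ3102 replicate 3 stood above the others for white cell genes (29.1 FPKM against at most 13.1) and kidney genes (363 against at most 83.8).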

How the results depend on the processing

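The count of liver list genes higher without overlap was 106, and 106 to 115 when each library was left out in turn, and the count at least 4-fold higher was 97, and 97 to 107. Leaving out Δ3102 replicate 3 added 9 genes to the first count. With the libraries between counted as high, the liver counts were 77 and 76. With a filter of 1 FPKM in 3 libraries they were 88 and 80, with no filter 130 and 117, and without the 3 WT libraries 122 and 108. Over all genes, leaving out each library gave 397 to 620 higher genes in place of 361, 203 to 368 lower in place of 162, 154 to 194 at least 4-fold higher in place of 152, and 5 to 12 at least 4-fold lower in place of 5. Fewer libraries make separation easier by construction: without the 3 WT libraries 1299 genes were higher, 990 lower and 95 at least 4-fold lower. With the libraries between counted as high, 129 were higher, 14 lower, 98 at least 4-fold higher and 0 at least 4-fold lower. With no filter on low values 238 were at least 4-fold higher and 24 lower. The count of 5 lower genes became 18 at 2-fold and 2 with deposited FPKM. These values' other causes were not tested. Of the genotype tests, DESeq2 called 24 liver list genes in AG-KO and 6 in NG-KO mice where edgeR called 0. Over all genes it called 408 and 165, where edgeR called 4 and 13. Leaving out each library gave 0 to 2 edgeR calls of liver list genes in AG-KO. There was 1 when AG-KO replicate 1 and 2 when AG-KO replicate 2 was left out. The fit with a replicate block called 0, 0 and 0 liver list genes in the 3 genotypes, and the numbers do not pair the mice. In all, 149 of the recomputed values were labelled as the same as the reported one and 28 as moved. The label is wide: it covers 541 higher genes in place of 361 without NG-KO replicate 1. It also covers the genotype counts of 0 that stayed at 0. Genes at 0 counts in the low group, and the overlap of genotype with Alb level, limit what the fold sizes and groups can show.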

Other observations

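Liver genes known to be biased by sex were looked at in a list chosen after their values were seen. Of 6 genes with male-biased expression in mouse liver, 5 passed the filter and 4 separated, where 2.00% of all genes were higher. The 6 genes had a summed FPKM of 24.8 to 37.0 in the high libraries, 5.89 to 12.3 between and 0.0766 to 1.60 in the low libraries. Most of the sum in the high libraries and those between came from Mup20, at means of 24.1 and 7.23 FPKM. Mup20 is also counted among the major urinary proteins, whose division of reads is uncertain. Of 8 genes with female-biased expression in mouse liver, 7 had 0 counts in all 14 libraries, and their sum was above 0 only in Δ3102 replicate 3, at 0.222 FPKM. All mice are labelled female. The 4 Y chromosome genes examined summed to at most 0.169 FPKM in any library. Testis genes summed to 198 and 235 FPKM in WT replicates 2 and 3 and to 230 FPKM in Δ3102 replicate 3. They summed to 9.74 to 11.1 FPKM in the other high libraries and to 137 FPKM in NG-KO replicate 1. The source of the testis and sex-biased liver transcripts was not tested.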
